A study of Saccharomyces cerevisiae with 18 samples.

Results

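The genes studied here encode the respiratory chain and the ATP synthase of budding yeast, *Saccharomyces cerevisiae*. They were chosen by name. A gene was a member when the symbol deposited with its probe set was *COX*, *QCR*, *ATP* or *SDH* followed by a number and at most 1 letter, or when it was *COR1*, *CYT1*, *RIP1*, *CYC1*, *CYC7*, *NDI1*, *NDE1* or *NDE2*. This gave 56 genes of the 5698 tested, and the rule used no measured value, although it was written with earlier results of these data known. *SDH5* to *SDH9* were not members because their probe sets carried older symbols or none. They comprised 3 NADH dehydrogenases, 4 genes of complex II, 9 of complex III, 2 cytochromes c, 9 subunits and 10 assembly factors of complex IV, and 5 F1 subunits, 8 Fo and stalk subunits and 6 assembly factors of the ATP synthase. Subunits and electron carriers together numbered 40, and assembly factors 16. The subunits encoded in mitochondrial DNA were not analysed here.

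Transcript levels came from 12 Affymetrix Yeast Genome 2.0 arrays, 3 biological replicates in each of 4 groups, from the laboratory strain W303 (*MATa*, with the auxotrophic alleles of that strain) and from its derivative W303-Δ*sky1*, which lacks the SR protein kinase gene *SKY1*. The groups were W303-Δ*sky1* treated with cisplatin, W303 treated with cisplatin, untreated W303-Δ*sky1* and untreated W303. All cultures grew in synthetic medium containing all supplements. Treated cultures received 600 µM cisplatin, a platinum drug that crosslinks DNA, for 4 h in the dark, and untreated cultures received only its solvent, DMSO. The sources used here describe 1 deletion strain and do not say whether the replicates came from independent transformants.

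In yeast the chain has no proton-pumping complex I. Electrons from NADH enter through single-polypeptide dehydrogenases (Ndi1 facing the matrix, Nde1 and Nde2 facing the intermembrane space) and those from succinate through complex II. Coenzyme Q carries them to complex III, cytochrome c takes them on to complex IV, cytochrome c oxidase, which reduces oxygen, and the proton gradient drives the ATP synthase. Transcription of these genes is held down by glucose and depends on haem and on the HAP activator complex. A few subunits exist as isoform pairs, of which 1 is favoured in air and its partner when oxygen or haem is scarce. The complexes need dedicated assembly factors. Those of complex IV serve its copper, its haem and the insertion of its mitochondrially made subunits, among other steps.

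Values are log2 signals normalised by RMA, so a difference of 1 is a doubling or halving of signal. Signals of different genes come from different probes and were never set against each other. The deletion was visible in the data. *SKY1* had log2 signals of 0.54, 1.33 and 0.56 in untreated W303-Δ*sky1*, against 8.12, 7.98 and 8.17 in untreated W303, and of 1.43, 1.17 and 1.03 in W303-Δ*sky1* with cisplatin, against 7.98, 8.09 and 8.07 in W303 with cisplatin. Probe sets for fission yeast on the same arrays, which have no target here, had a 95th percentile of 1.24 to 1.35, and all 56 members lay above it on every array, the lowest being *ATP10* at 2.50 to 4.03. The median over all genes ranged from 6.83 to 7.00 between arrays. Untreated W303 replicate 2 gave the lowest signal of its group for 41 of the 56 members in the strain comparison and for 40 in the cisplatin comparison, against 43.7% and 45.1% of all genes. These are bulk cultures, so a change in every cell and a larger change in some cells cannot be told apart.

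Each comparison was tested with limma within the table in which its 6 arrays had been normalised together, with Benjamini-Hochberg adjustment over the 5698 genes, and a gene was called higher or lower at an adjusted p under 0.05. A stricter call, here the strict thresholds, asked for a change of at least 1.6-fold and an unadjusted p under 0.01 on top of that. Differences below are on the log2 scale. The effect of cisplatin in W303 shares untreated W303 arrays with the strain comparison without drug and treated W303 arrays with the strain comparison under drug, so the comparisons are not independent.

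The first question was what cisplatin did to these transcripts in W303. Few of them were called, all of them lower, and the share called lower did not exceed that of all genes. No member was called higher and 7 (12.5%) were called lower (*COX18*, *COX20*, *COX19*, *ATP16*, *SDH1*, *SDH3* and *ATP5*). Over all genes 28.4% were called, 13.2% higher and 15.3% lower. At an unadjusted p under 0.05 there were 14 members in limma, against 42.1% of all genes. No member passed the strict thresholds in either direction, against 3.11% of all genes (1.58% higher and 1.53% lower). The groups did not overlap for 15 members, against 46.5% of all genes. The differences ranged from −0.44 to 0.22 with a median of −0.07, against −0.002 over all genes.

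Of the 10 assembly factors of complex IV, 3 were called lower (against 15.3% of all genes). A negative difference was found for 9 of them (against 2869 of all 5698 genes), and their median was −0.22. *COX18*, whose product helps export part of the mitochondrially made Cox2 through the inner membrane, had signals of 5.47, 5.17 and 5.38 with cisplatin, against 5.65, 5.90 and 5.77 without. The difference was −0.44 (SE 0.097), a fold of 0.739 with a limma adjusted p of 0.0138. *COX20*, which encodes a chaperone of newly made Cox2, had 7.35, 7.32 and 7.32 with cisplatin, against 7.75, 7.75 and 7.67 without (−0.39, limma adjusted p = 0.00181). In both genes every treated array lay below every untreated one. *COX19*, which encodes a small cysteine-rich protein linked to copper delivery, had 7.42, 7.45 and 7.34 with cisplatin, against 7.70, 7.89 and 7.77 without (limma adjusted p = 0.00531), again with no overlap. These 3 calls held when any 1 array was left out and under all alternatives that kept the threshold. At an adjusted p under 0.01 *COX20* and *COX19* remained and *COX18* did not.

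The other decreases were smaller and less stable. *ATP16*, which encodes the delta subunit of the F1 rotor, had 8.88, 8.94 and 8.84 with cisplatin, against 9.27, 9.09 and 9.19 without (−0.30, limma adjusted p = 0.0127), and it lost the call without W303 cisplatin replicate 3 (adjusted p = 0.056). *SDH1*, the flavoprotein subunit of complex II, had 8.44, 8.46 and 8.28 with cisplatin, against 8.77, 8.56 and 8.69 without (−0.28, limma adjusted p = 0.0296). The groups did not overlap, although the call held in only 1 of the 6 fits that left out an array, that without untreated W303 replicate 2 (highest adjusted p = 0.106). *SDH3*, a membrane anchor of complex II (−0.27, limma adjusted p = 0.0238), lost its call without any 1 of the treated arrays (up to 0.0907). *ATP5*, which encodes the stalk subunit OSCP (limma adjusted p = 0.0382), held in 1 of the 6 fits, again that without untreated W303 replicate 2 (up to 0.114). With the replicate number as a block its adjusted p was 0.0547, while *COX5B*, *COX23* and *NDI1* then passed at 0.0465, 0.0349 and 0.0298, so that 9 members in all were called lower.

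None of the isoform pairs was called in this comparison. *COX5A*, the subunit V isoform favoured in air, had 8.77, 8.84 and 8.76 with cisplatin, against 8.84, 8.58 and 8.64 without (0.11, limma adjusted p = 0.319). *COX5B*, its hypoxic partner, had 8.62, 8.60 and 8.69 with cisplatin, against 8.72, 8.94 and 8.90 without (−0.22, limma adjusted p = 0.0555). The groups overlapped for *COX5A* and did not overlap for *COX5B*. For the cytochromes c, *CYC1*, the aerobic form, had 8.20, 8.38 and 8.23 with cisplatin, against 8.73, 8.14 and 8.47 without (−0.18, limma adjusted p = 0.364). *CYC7*, the form favoured under low oxygen, had 10.12, 10.39 and 10.44 with cisplatin, against 10.40, 10.15 and 10.32 without (0.03, limma adjusted p = 0.874). Both sets of arrays overlapped, and in *CYC1* the untreated arrays spread further than the treated ones.

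Among the dehydrogenases, *NDI1* had 8.31, 8.18 and 8.10 with cisplatin, against 8.73, 8.29 and 8.50 without (−0.31, limma adjusted p = 0.0771). The groups overlapped through untreated replicate 2, and without that array the adjusted p was 0.0157. *NDE1* had 8.57, 8.59 and 8.52 with cisplatin, against 8.59, 8.24 and 8.37 without (0.16, limma adjusted p = 0.216). *NDE2* had 5.03, 4.94 and 4.85 with cisplatin, against 5.11, 5.19 and 4.90 without (−0.12, limma adjusted p = 0.314), and both genes overlapped between the groups.

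**Figure D1:**
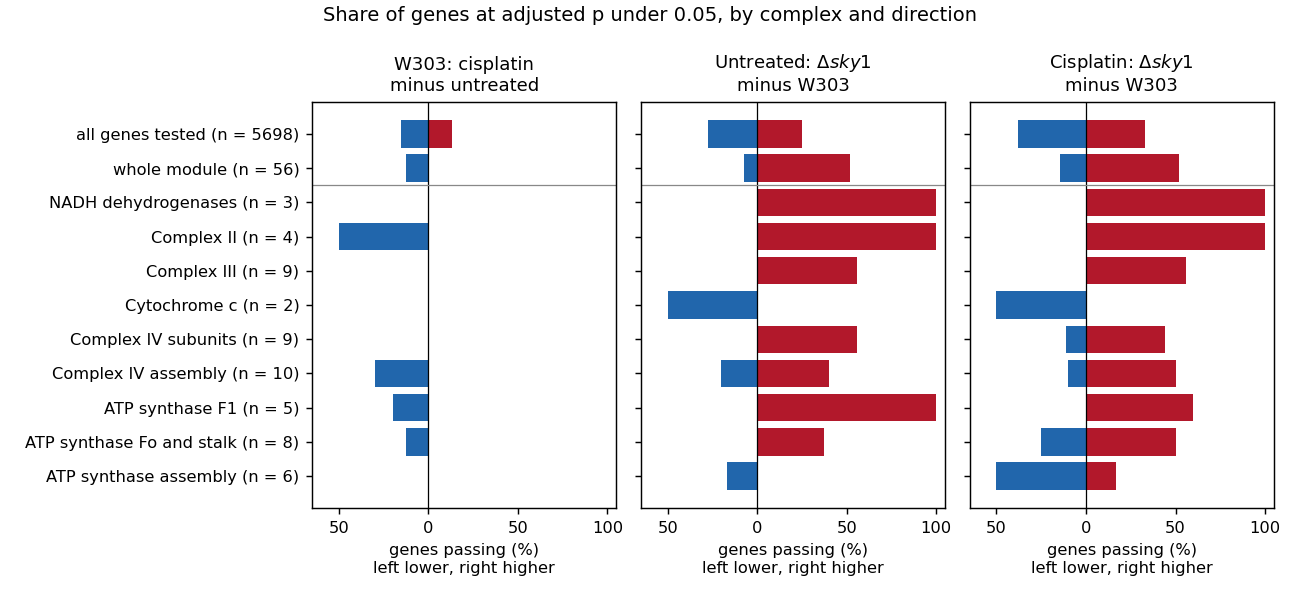
Percentage of genes called higher (right of 0) and lower (left of 0) by limma at an adjusted p under 0.05 in each of the 3 comparisons, for all 5698 genes, the 56 members and each complex. The share called higher is 0% of the members for cisplatin in W303, whereas 51.8% are called higher in W303-Δ*sky1* relative to W303 both without and with cisplatin.

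The second question was how the deletion of *SKY1* altered these transcripts in untreated cells. Subunits of every complex were mostly higher in W303-Δ*sky1*, whereas assembly factors were divided. Of the 56 members 29 were called higher (51.8%, against 24.9% of all genes) and 4 lower (7.1%, against 27.4%), so that 33 were called, against 52.3% of all genes. The groups did not overlap for 37 members, against 62% of all genes. The median difference was 0.21, against −0.02 over all genes. Of the 40 subunits and carriers 25 were called higher and 1 lower, with a median of 0.32, and of the 16 assembly factors 4 were called higher and 3 lower, with a median of −0.08. At the strict thresholds, which 10.2% of all genes passed, 4 members were higher (*NDE2*, *SDH2*, *COX4* and *COX18*, against 4.93% of all genes) and *CYC7* was lower (against 5.28%).

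At the entry of the chain all 3 dehydrogenases were higher in W303-Δ*sky1*. *NDE2* had 5.98, 5.87 and 5.83 in untreated W303-Δ*sky1*, against 5.11, 5.15 and 4.90 in untreated W303, a 1.79-fold difference (0.84 on the log2 scale, limma adjusted p = 0.000159). *NDI1* had 9.01, 8.84 and 9.02 in untreated W303-Δ*sky1*, against 8.63, 8.16 and 8.40 in untreated W303 (0.56, limma adjusted p = 0.00547). *NDE1* had 8.60, 8.55 and 8.60 in untreated W303-Δ*sky1*, against 8.38, 8.09 and 8.21 in untreated W303 (0.36, limma adjusted p = 0.00814). None of the 3 overlapped between the strains. All 4 complex II genes were also higher, with a median of 0.41. The largest difference of the complex was in *SDH2*, the iron-sulfur subunit, at 8.82, 8.86 and 8.99 in untreated W303-Δ*sky1*, against 8.28, 8.04 and 8.27 in untreated W303 (0.69, limma adjusted p = 0.000462). *SDH1*, *SDH3* and *SDH4* differed by 0.45, 0.37 and 0.37.

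In complex III, 5 of 9 genes were higher. These were *COR1* (0.61, limma adjusted p = 0.00103) and *QCR2*, which encode the core proteins, and the small subunits *QCR6*, *QCR7* and *QCR10* (0.60, limma adjusted p = 0.0042). The genes of the catalytic subunits did not pass the test: *CYT1*, cytochrome c1, differed by −0.12 and *RIP1*, the Rieske iron-sulfur protein, by 0.16. *QCR8* (0.03) and *QCR9* (0.18) did not pass either.

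In complex IV, 5 of 9 subunit genes were higher (*COX4*, *COX8*, *COX12*, *COX6* and *COX5A*) and none was lower. *COX4*, which encodes the zinc-binding subunit IV, showed the largest positive difference of all members in untreated cells. Its signals were 9.03, 9.10 and 9.00 in untreated W303-Δ*sky1*, against 8.39, 7.76 and 8.12 in untreated W303, with no overlap. This was a 1.94-fold difference (0.95, SE 0.14, limma adjusted p = 0.00103). The spread was wider in W303, and with any 1 array left out the difference was at least 0.79. The smaller subunit *COX8* differed by 0.63 (limma adjusted p = 0.00516). *COX6* was called at 0.31 but was 0.19 without untreated W303 replicate 2, and it lost its call there, without each of 4 further arrays (up to 0.12), and with the replicate number as a block (0.061).

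Assembly factors of complex IV moved in both directions. *COX18* was higher, with 6.37, 6.26 and 6.36 in untreated W303-Δ*sky1*, against 5.55, 5.71 and 5.66 in untreated W303 (0.69, limma adjusted p = 0.000171), and so were *COX15*, of haem a synthesis, at 0.32, *COX23* at 0.32 and *COX16* at 0.23. The copper chaperone gene *COX17* was lower. It had 7.23, 7.61 and 7.21 in untreated W303-Δ*sky1*, against 7.94, 7.91 and 8.11 in untreated W303 (limma adjusted p = 0.00262). *COX19* was lower too, at 7.21, 7.25 and 7.20 in untreated W303-Δ*sky1*, against 7.63, 7.83 and 7.79 in untreated W303 (−0.53, limma adjusted p = 0.000581). All 3 genes with values here were free of overlap between the strains. *COX17*, *COX19* and *COX23* encode related small cysteine-rich proteins of the intermembrane space, and the first 2 had negative differences while the last had a positive one.

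All 5 genes of the F1 head of the ATP synthase were higher, most of all *ATP3*, the gamma subunit of the rotor. It had 9.94, 10.00 and 10.10 in untreated W303-Δ*sky1*, against 9.53, 9.11 and 9.45 in untreated W303 (0.65, limma adjusted p = 0.00201). *ATP16* differed by 0.35, *ATP15* by 0.29, and the catalytic and regulatory head subunits *ATP2* and *ATP1* by 0.27 and 0.20. Of the 8 Fo and stalk genes, the 3 called higher all encode parts of the peripheral stalk: *ATP5* at 0.57, *ATP7* at 0.53 and *ATP4* at 0.45. The gene of another stalk subunit, *ATP14*, was not called (0.20, limma adjusted p = 0.121). None of the 6 ATP synthase assembly factors was higher. *ATP12*, the chaperone of the alpha subunit, was lower, with 5.44, 5.32 and 5.60 in untreated W303-Δ*sky1*, against 5.85, 6.00 and 5.92 in untreated W303 (−0.47, limma adjusted p = 0.0026).

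Of the isoform pairs, *CYC7* showed the largest negative difference of the members, with 9.40, 9.82 and 9.43 in untreated W303-Δ*sky1*, against 10.45, 10.21 and 10.39 in untreated W303 (−0.80, fold 0.574, limma adjusted p = 0.00121). *CYC1* had 8.32, 8.44 and 8.39 in untreated W303-Δ*sky1*, against 8.67, 8.12 and 8.45 in untreated W303, which overlapped (−0.03, 95% interval −0.33 to 0.27, limma adjusted p = 0.867). *COX5A* had 8.87, 8.91 and 8.89 in untreated W303-Δ*sky1*, against 8.78, 8.50 and 8.56 in untreated W303 (limma adjusted p = 0.0222). That call held in 1 of the 6 fits that left out an array, the one without untreated W303 replicate 1 (up to 0.0796). *COX5B* had 8.74, 8.85 and 8.61 in untreated W303-Δ*sky1*, against 8.69, 8.94 and 8.85 in untreated W303 (−0.09, limma adjusted p = 0.425), with overlap. Of 8 other genes known to be induced at low oxygen 5 were called lower (against 27.4% of all genes) and 1 higher (against 24.9%), the fatty acid desaturase gene *OLE1* (1.05). The lower ones included *HEM13* (−0.63), of haem synthesis, and the cell wall gene *DAN1* (−0.67). After cisplatin in W303, where *CYC7* was not called, 5 of the 8 were lower as well (against 15.3% of all genes). Their part in the result was not tested.

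Without untreated W303 replicate 2, 25 of the 29 higher calls remained. Of all 5698 genes, 1362 were called higher in that fit and 1419 with all arrays, and how many were the same genes was not counted. Of the 33 calls 25 held with any 1 array left out. The exceptions were *ATP1*, *ATP2*, *SDH4*, *COX5A*, *COX6*, *COX16*, *COX23* and *QCR2*, with an adjusted p of up to 0.123, each of the 6 arrays costing at least 1 of them.

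**Figure D2:**
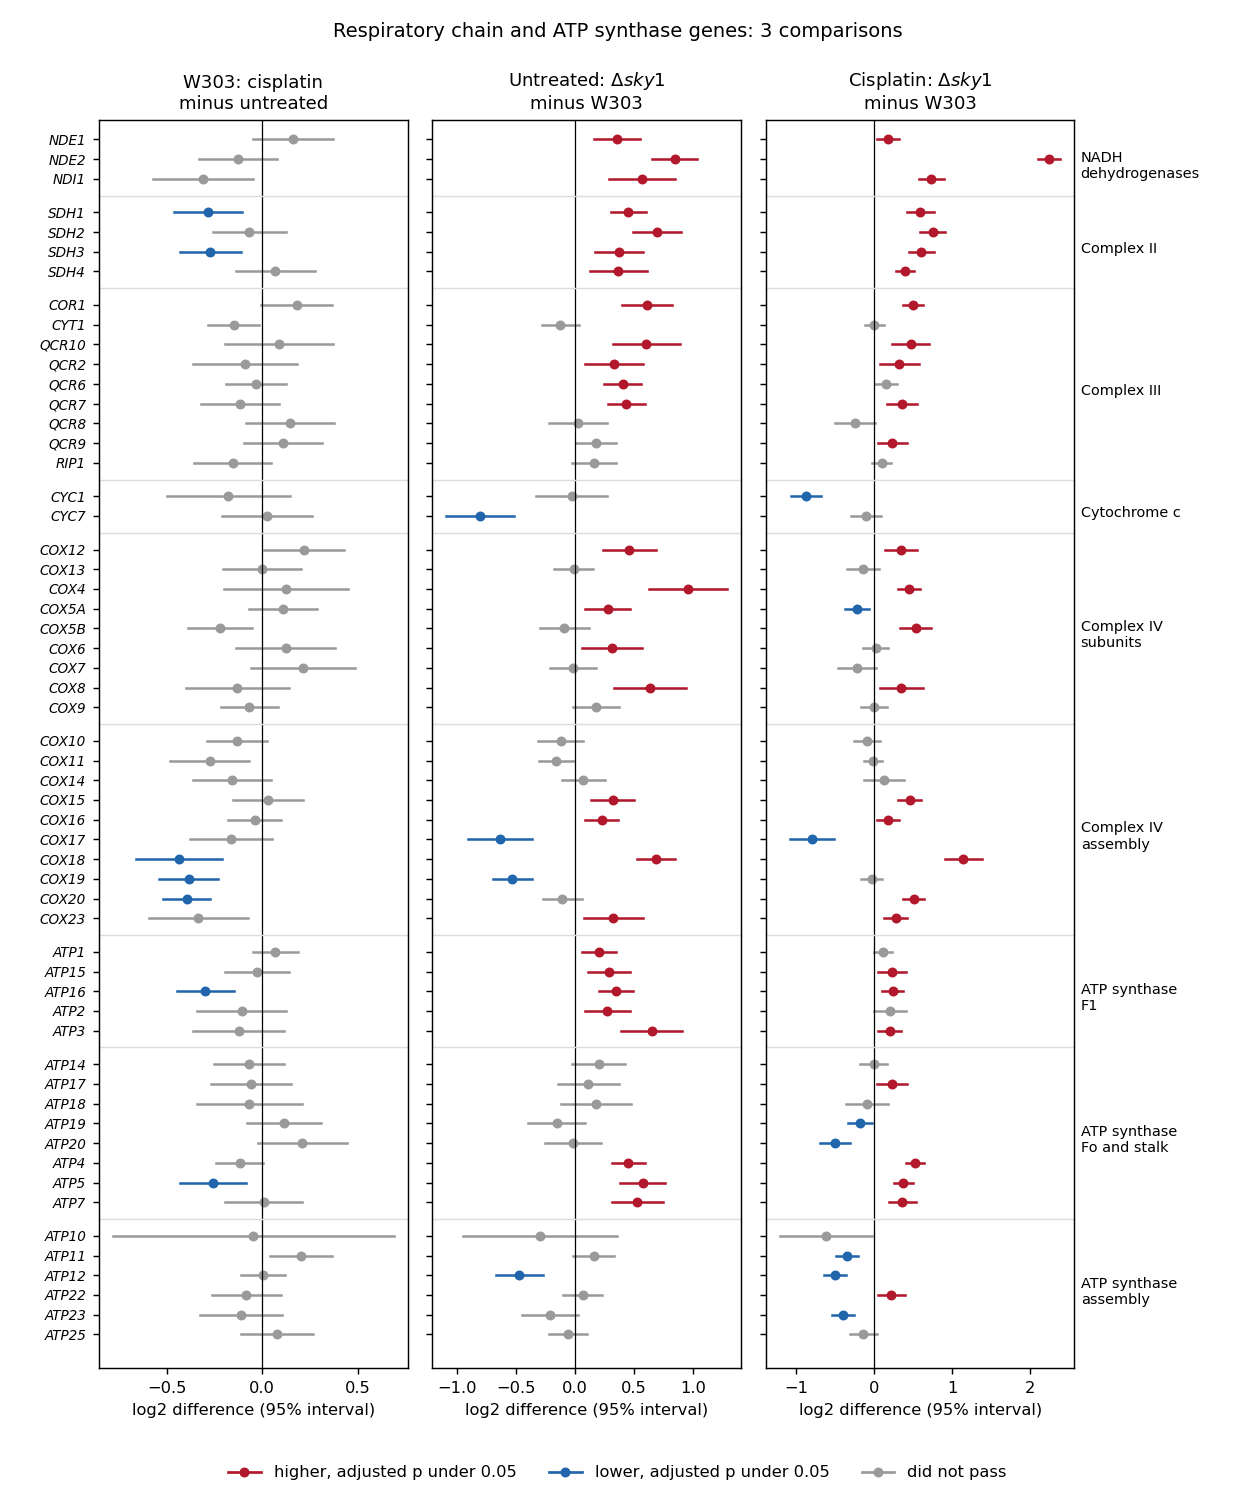
Log2 difference of each of the 56 genes, grouped by complex, for cisplatin minus untreated in W303 and for W303-Δ*sky1* minus W303 without and with cisplatin. Points are limma estimates with 95% intervals, red where called higher, blue where called lower and grey where not called, and the x ranges differ between panels. Most subunits of complexes II and III and of the F1 head lie right of 0 in both strain panels, and *NDE2* reaches 2.25 with cisplatin.

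The third question was how the strains differed when both had received cisplatin. Again most subunits were higher in W303-Δ*sky1*, and the median difference was highest for the dehydrogenases and complex II. As many members were called higher, 29 (51.8%, against 32.8% of all genes), and 8 were called lower (14.3%, against 37.8%), so that 37 were called, against 70.6% of all genes. The groups did not overlap for 36 members, against 73.9% of all genes (34.7% higher and 39.2% lower). The median difference was 0.19, against −0.03 over all genes. Subunits and carriers gave 23 higher and 4 lower calls with a median of 0.23, and assembly factors 6 and 4 with a median of −0.03. At the strict thresholds, which 19.9% of all genes passed, *NDE2*, *COX18*, *SDH2* and *NDI1* were higher, against 8.78% of all genes, and *CYC1* and *COX17* were lower, against 11.2%.

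*NDE2* was the member with the largest difference in any of the 3 comparisons. It had 7.11, 7.07 and 6.96 in W303-Δ*sky1* with cisplatin, against 4.85, 4.83 and 4.72 in W303 with cisplatin, a 4.74-fold difference (2.25, SE 0.063, limma adjusted p = 8.13e-08). The lowest W303-Δ*sky1* array was far above the highest W303 array. *NDI1* had 8.89, 8.77 and 8.93 in W303-Δ*sky1* with cisplatin, against 8.23, 8.13 and 8.03 in W303 with cisplatin (0.73, limma adjusted p = 2.61e-05), also without overlap. *NDE1*, the paralogue of *NDE2*, had 8.56, 8.61 and 8.74 in W303-Δ*sky1* with cisplatin, against 8.47, 8.49 and 8.44 in W303 with cisplatin (0.17, limma adjusted p = 0.0354). Its call was lost in 5 of the 6 fits that left out an array (up to 0.121), and held only without W303-Δ*sky1* cisplatin replicate 1.

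The 4 complex II genes were higher, with a median of 0.60. *SDH2* had 8.82, 8.69 and 8.76 in W303-Δ*sky1* with cisplatin, against 7.88, 8.07 and 8.07 in W303 with cisplatin (0.75, limma adjusted p = 1.93e-05). *SDH3* had 9.20, 9.37 and 9.27 in W303-Δ*sky1* with cisplatin, against 8.66, 8.79 and 8.59 in W303 with cisplatin (0.60, limma adjusted p = 7.96e-05). Neither overlapped between the strains. *SDH1* and *SDH4* differed by 0.59 and 0.40. In complex III the higher genes were *COR1* (0.49), *QCR10* (0.47), *QCR7* (0.35), *QCR2* (0.32) and *QCR9* (0.23), and none was lower. The value of *QCR2* was 0.21 without W303-Δ*sky1* cisplatin replicate 1. With the replicate number as a block *QCR6* and *QCR8* also passed (adjusted p = 0.0285 and 0.00956), *QCR8* with a negative difference of −0.24.

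Among the isoforms *CYC1* was lower, with 7.12, 7.39 and 7.31 in W303-Δ*sky1* with cisplatin, against 8.07, 8.27 and 8.13 in W303 with cisplatin (−0.88, fold 0.543, limma adjusted p = 2.35e-05). *CYC7* had 10.20, 10.27 and 10.26 in W303-Δ*sky1* with cisplatin, against 10.15, 10.43 and 10.46 in W303 with cisplatin (−0.10, limma adjusted p = 0.309). The strains did not overlap for *CYC1* and overlapped for *CYC7*, for which the adjusted p was 0.0161 without W303 cisplatin replicate 1. *COX5B* was higher, at 9.01, 9.32 and 9.18 in W303-Δ*sky1* with cisplatin, against 8.57, 8.62 and 8.74 in W303 with cisplatin (0.53, limma adjusted p = 0.000544). *COX5A* was lower, at 8.65, 8.48 and 8.43 in W303-Δ*sky1* with cisplatin, against 8.73, 8.77 and 8.71 in W303 with cisplatin (limma adjusted p = 0.0171). The call of *COX5B* held with any array left out, and that of *COX5A* in 3 of 6 fits (up to 0.064, lost without W303 cisplatin replicate 2 or W303-Δ*sky1* cisplatin replicate 2 or 3). Of the 8 listed low-oxygen genes 1 was higher, *OLE1* (0.54), and 2 were lower, *HEM13* (−1.19) and the ADP/ATP carrier gene *AAC3* (−0.73), and their part in these isoform differences was not tested.

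Of the other complex IV subunits, *COX4* (0.44), *COX8* (0.35) and *COX12* (0.34) were higher. *COX8* was 0.21 without W303 cisplatin replicate 1, whose signal was the lowest of its group for 34 of the 56 members, against 30.2% of all genes. Among the assembly factors *COX18* showed the second largest positive difference of the members, with 6.47, 6.16 and 6.26 in W303-Δ*sky1* with cisplatin, against 5.28, 4.96 and 5.22 in W303 with cisplatin (1.14, 2.2-fold, limma adjusted p = 1.78e-05). *COX20* (0.50), *COX15* (0.45), *COX23* (0.28) and *COX16* (0.18) were higher too. *COX17* was lower, at 6.92, 7.27 and 7.15 in W303-Δ*sky1* with cisplatin, against 7.68, 7.96 and 8.11 in W303 with cisplatin (−0.80, limma adjusted p = 0.000378), with every W303-Δ*sky1* array below every W303 array.

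Genes of the ATP synthase moved in both directions. In the F1 head *ATP16* (0.23), *ATP15* (0.22) and *ATP3* (0.20) were higher, while *ATP2* (0.21) and *ATP1* (0.11) did not pass. The stalk genes *ATP4* (0.52), *ATP5* (0.37) and *ATP7* (0.36) and the Fo gene *ATP17* (0.23, and 0.14 without W303 cisplatin replicate 1) were higher. The stalk gene *ATP14* (−0.008, limma adjusted p = 0.927) and the Fo gene *ATP18* (−0.09, limma adjusted p = 0.514) did not pass. The 2 lower subunit genes, *ATP20* and *ATP19*, encode small membrane subunits associated with the dimeric form of the enzyme. *ATP20* had 6.98, 6.96 and 7.09 in W303-Δ*sky1* with cisplatin, against 7.36, 7.53 and 7.68 in W303 with cisplatin (−0.51, limma adjusted p = 0.000609), and *ATP19* differed by −0.19 (limma adjusted p = 0.0323). *TIM11*, which encodes the dimer subunit e and is not a member by name, differed by −0.19 (limma adjusted p = 0.0379).

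ATP synthase assembly factors were lower in 3 of 6 cases (50%, against 37.8% of all genes). *ATP12* had 5.48, 5.31 and 5.35 in W303-Δ*sky1* with cisplatin, against 5.88, 5.87 and 5.90 in W303 with cisplatin (−0.50, limma adjusted p = 8.37e-05). *ATP23*, which encodes a protease that matures the mitochondrially made subunit Atp6, had 5.30, 5.31 and 5.19 in W303-Δ*sky1* with cisplatin, against 5.76, 5.63 and 5.62 in W303 with cisplatin (−0.40, limma adjusted p = 0.000483). Both were free of overlap. *ATP11*, the chaperone of the beta subunit, differed by −0.35 (limma adjusted p = 0.000807), and *ATP22*, needed for Fo, was higher by 0.22. *ATP10*, another Fo assembly factor, had 2.99, 2.50 and 2.61 in W303-Δ*sky1* with cisplatin, against 3.94, 3.25 and 2.78 in W303 with cisplatin (−0.62, limma adjusted p = 0.057). The groups overlapped through replicates 1 and 3, and with the replicate number as a block the adjusted p was 0.00488. *ATP2*, *ATP25* and *COX7* passed with the block as well (0.0118, 0.0342 and 0.0261).

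Of the 37 calls 26 held with any 1 array left out. The exceptions were *ATP3*, *ATP15*, *ATP17*, *ATP19*, *ATP22*, *COX5A*, *COX8*, *COX16*, *NDE1*, *QCR2* and *QCR9*, and each of the 6 arrays cost at least 3 of them.

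**Figure D3:**
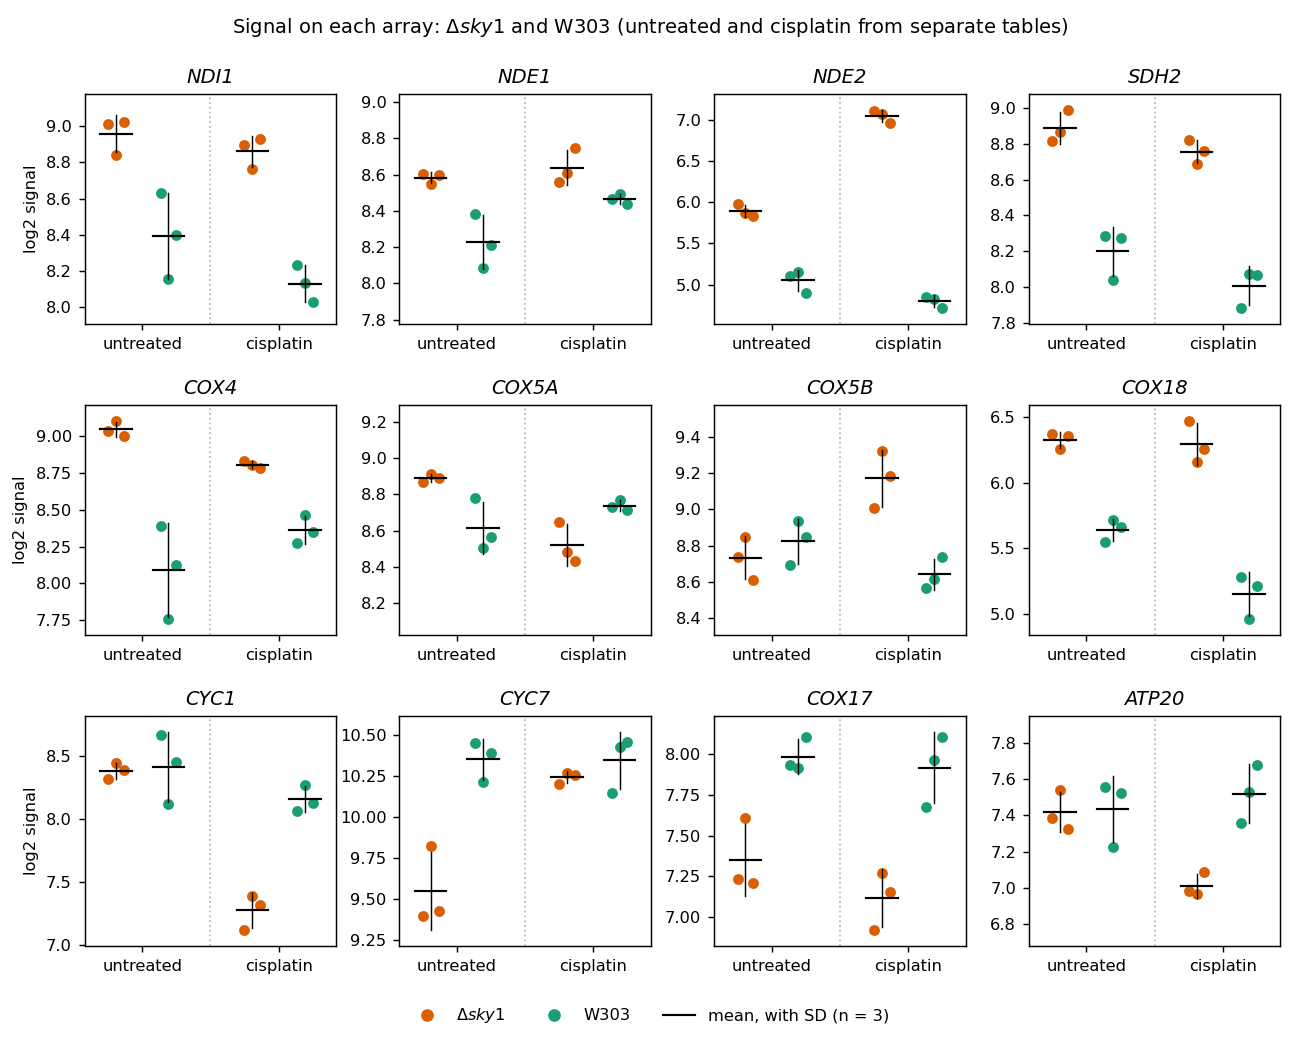
Log2 signal on each array for 12 genes, with W303-Δ*sky1* left of W303, and untreated and cisplatin arrays apart; bars give mean ± SD of 3 arrays. *NDE2* and *COX18* are higher in W303-Δ*sky1* in both pairs, *CYC7* is lower in the untreated pair (−0.80) and *CYC1* in the cisplatin pair (−0.88).

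The strain differences without and with cisplatin came from separate arrays, although treated and untreated aliquots were taken from common cultures. Set side by side, 48 of the 56 members had the same sign in both (85.7%), as did 80.6% of all genes. Across the members Pearson's r was 0.692 and Spearman's rho 0.759, and across all genes 0.802 and 0.788, as descriptions over genes that are not independent replicates. Both comparisons called the same 24 of the 56 members higher, among them all 3 dehydrogenases and all 4 complex II genes, and called *COX17* and *ATP12* lower. Of all 5697 genes except *SKY1*, 1146 were called higher in both and 1304 lower in both. *COX5A* was called higher without and lower with the drug, at 0.27 and −0.22. *NDE2* differed by 2.25 with cisplatin and by 0.84 without, and *CYC1* by −0.88 with and −0.03 without. Whether these differences differ from each other was not tested, since each table was normalised separately and none joined the treated and untreated W303-Δ*sky1* arrays.

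**Figure D4:**
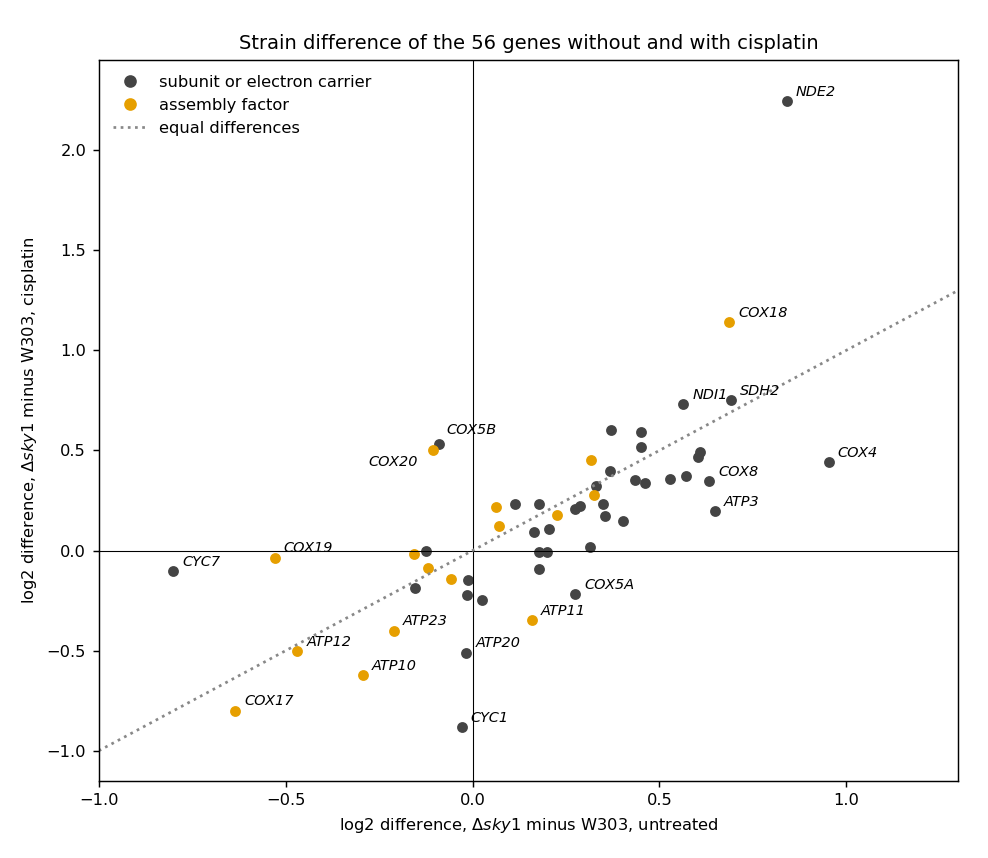
Log2 difference of W303-Δ*sky1* minus W303 for the 56 genes without cisplatin (x axis) and with cisplatin (y axis), subunits and assembly factors marked apart, with a dotted line where both are equal. *NDE2* (0.84 and 2.25) lies farthest above the line and *CYC1* (−0.03 and −0.88) far below it, and *COX5A* lies in the lower right quadrant.

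Other genes of the pathway were listed by function and were not members by name. The count of each list stands beside the share of all genes called. That share was 24.9% higher and 27.4% lower between untreated strains, 32.8% and 37.8% between treated strains, and 13.2% and 15.3% for cisplatin in W303. Of 23 further complex IV genes, mostly assembly factors, 3 were called higher and 6 lower (13% and 26.1%) in untreated W303-Δ*sky1* relative to W303. With cisplatin 7 were higher and 9 lower (30.4% and 39.1%). They included *OXA1*, the inner membrane insertase, at 0.84 without the drug (limma adjusted p = 6.98e-05), and *SCO1*, a copper chaperone of complex IV, with 7.05, 6.99 and 6.92 in W303-Δ*sky1* with cisplatin, against 6.07, 6.06 and 6.05 in W303 with cisplatin (0.93, limma adjusted p = 1.62e-06). In the other direction stood *PET117* without the drug (−0.85) and *COA2* with it (−0.96). *COA2* was higher after cisplatin in W303 by 0.79. Cisplatin in W303 gave 4 higher and 2 lower of these 23.

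For complex III, 3 of 10 further genes were higher and 1 lower without the drug, against 24.9% and 27.4% of all genes. With the drug 7 were higher and 1 lower, against 32.8% and 37.8%. The largest positive differences were those of the cytochrome c haem attachment factor *CYC2* (0.79) without and of *CBP1* (0.73), of cytochrome b mRNA, with the drug. Cisplatin in W303 gave 1 higher and 2 lower. For complex II 4 further genes (*SDH9*, *SHH3*, *SHH4* and *TCM62*) gave 2 higher and 1 lower without the drug and 4 higher with it. *SHH4*, a paralogue of *SDH4*, was lower without the drug (−0.42) and higher with it (0.85), and was lower after cisplatin in W303 (−0.42), where no other of the 4 was called. The 4 dedicated assembly factors of complex II (*SDH5*, *SDH6*, *SDH7* and *SDH8* by their RefSeq names), looked at after their values were seen, included no gene called higher without the drug. *SDH6* was lower there, with 6.29, 6.53 and 6.05 in untreated W303-Δ*sky1*, against 7.12, 7.30 and 7.12 in untreated W303 (−0.89, limma adjusted p = 0.000627), and the strains did not overlap. With cisplatin *SDH6* (−0.41) and *SDH5* (−0.46) were lower and *SDH7* was higher (0.21, limma adjusted p = 0.0427), and after cisplatin in W303 *SDH5* was higher (0.38) and *SDH7* lower (−0.26).

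For the ATP synthase, 3 of 12 further genes were higher and 5 lower without the drug, against 24.9% and 27.4% of all genes. With the drug 4 were higher and 7 lower, against 32.8% and 37.8%. *INH1*, which encodes the inhibitor of ATP hydrolysis by the enzyme, was higher in W303-Δ*sky1* both without (0.77, limma adjusted p = 0.000326) and with cisplatin (0.81, limma adjusted p = 4.39e-06). *NCA3*, linked to expression of Atp6 and Atp8, was lower without (−0.86) and with the drug (−1.60, limma adjusted p = 2.98e-07). Cisplatin in W303 gave 3 higher and 1 lower, *INH1* at −0.41.

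The transcriptional regulators were measured too. *HAP4*, the activating subunit of the HAP complex, had 9.58, 9.65 and 9.68 in untreated W303-Δ*sky1*, against 9.74, 9.24 and 9.62 in untreated W303 (0.10, limma adjusted p = 0.502), and differed by 0.07 with cisplatin (limma adjusted p = 0.265). After cisplatin in W303 it differed by −0.28 (limma adjusted p = 0.0971), and by −0.42 without untreated replicate 2 (limma adjusted p = 0.003). *HAP1*, the haem-dependent activator, was higher in W303-Δ*sky1* without the drug (limma adjusted p = 0.00255) and had 8.62, 8.55 and 8.51 in W303-Δ*sky1* with cisplatin, against 7.83, 7.74 and 7.64 in W303 with cisplatin (0.82, limma adjusted p = 8.18e-06). *ROX1*, the repressor of low-oxygen genes, differed by 0.24 without the drug (limma adjusted p = 0.0768) and by −0.40 with it (limma adjusted p = 0.000587), and after cisplatin in W303 by 0.30 (limma adjusted p = 0.0289, lost in 4 of 6 fits that left out an array). Of the 15 regulators listed, 4 were higher and 5 lower without the drug (26.7% and 33.3%, against 24.9% and 27.4% of all genes). With it 4 were higher and 6 lower (26.7% and 40%, against 32.8% and 37.8%). After cisplatin in W303 2 were higher and none lower, against 13.2% and 15.3% of all genes.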

How the data were processed

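RNA of 12 aliquots, a treated and an untreated one from each starting culture, was hybridised to Affymetrix Yeast Genome 2.0 arrays after 3′ IVT labelling. The authors deposited log2 signals from 3 separate RMA runs (Expression Console) of 6 arrays each, and the 6 W303 arrays are in 2 of them (18 samples in the series). A genome build is not given in the sources used here. Columns of the authors' own comparisons (limma p, false discovery rate, group means) were not used.

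The tables list 10715 probe sets, of which 5714 carry a budding yeast annotation, 4948 belong to *S. pombe* and 53 have none. A gene with more than 1 probe set (16 genes) was represented by the one with the highest mean signal, which left 5698 genes. The strict thresholds are those of the study. All 56 members matched a RefSeq symbol and none shared a probe set. Each table was fitted with limma 3.58.1 in R 4.3.3 (lmFit, eBayes) on the 6 arrays, without covariates, and the procedure was tested on simulated data. The number of arrays limits the precision. Replicates within a group are separate cultures, so p-values measure the spread between cultures.

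Replicate numbers were taken to pair the samples. Deviations of same-numbered arrays correlated at 0.26, 0.21 and 0.32 for cisplatin in W303, at 0.26, 0.22 and 0.43 between untreated strains and at 0.44, 0.34 and 0.29 between treated strains, while no other pair exceeded 0.13. Deviations were taken from the group means, so positive same-number values push the other pairs down, whose low values are no separate support. Within W303 the pairing follows from the methods, which divided a culture into aliquots, and between strains it rests on these correlations alone. The block by replicate number entered an alternative fit.

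Per-array values are given for up to 5 called members without overlap in each direction, for the isoform pairs and for the NADH dehydrogenases. In the other gene lists the genes with the largest called difference in a direction and *HAP4*, *HAP1* and *ROX1* are named, some with their difference alone. Other genes named were chosen after their values were seen. The members and gene lists were chosen with earlier results of these data known. Alternatives changed the gene set, the signal filter, the variance model, the scaling, the threshold and the arrays used.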

Additional observations from a re-analysis of the deposited data

Results flagged for a closer look

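*COX5A* had opposite strain differences in the separate tables, with no overlap of the strains in either. W303-Δ*sky1* minus W303 was −0.22 with cisplatin, where all 3 W303-Δ*sky1* arrays were below all W303 arrays, and 0.27 without it, where all 3 were above. The value with the drug minus that without was −0.49, and this difference was not tested. Of all genes except *SKY1*, 168 of 5697 had opposite differences without overlap, and *COX5A* was the only one of the 56 members. Of the 6 fits that left out an array, its call held in 1 without the drug and in 3 with it.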

How the results depend on the processing

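No scaling alternative changed the sign of a called member. For cisplatin in W303 the count of members called lower, 7, was 4 over all probe sets including *S. pombe*, where more features were tested, 2 at an adjusted p under 0.01, 9 with the replicate block, and 3 (without W303 cisplatin replicate 3) to 10 (without untreated replicate 2) with an array left out. The count called higher, 0, was 0 to 2, at 2 without untreated replicate 1 (*NDE1* and *ATP11*) or W303 cisplatin replicate 1 (*COX12* and *COX7*). The median ran from −0.107 (without untreated replicate 2) to −0.0197 (without W303 cisplatin replicate 1). Between untreated strains, leaving out an array gave 22 to 30 members higher and 4 to 5 lower, and 2 to 6 higher and 1 to 2 lower at the strict thresholds, with 2 higher without W303-Δ*sky1* replicate 3 and 2 lower without W303-Δ*sky1* replicate 2. Between treated strains it gave 21 to 27 higher and 6 to 12 lower, and 4 higher and 2 to 3 lower at the strict thresholds. The 12 lower were counted without W303 cisplatin replicate 1, and also with the replicate block. The block gave 28 higher and 4 lower without cisplatin and 31 higher with it. The median strain difference stayed between 0.193 and 0.26 without and 0.159 and 0.209 with cisplatin, and was 0.223 after median centring with cisplatin. Over all members, leaving out an array changed the sign of 3 to 6 differences for cisplatin in W303. Between untreated strains it changed 1 to 3, and between treated strains 1 to 4. None of these was a called member. Among the isoform pairs, the NADH dehydrogenases, *HAP4*, *HAP1* and *ROX1*, such changes were seen for 3 uncalled differences. They were those of *CYC7* after cisplatin (−0.0439 to 0.125), of *CYC1* between untreated strains (−0.177 to 0.0987) and of *HAP4* there (−0.0408 to 0.206). The cause was not tested. Over all genes, cisplatin gave 750 higher and 871 lower calls, and 417 and 548 over all probe sets.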

Other observations

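Of 6 genes listed as other electron donors to the chain, 5 were higher in W303-Δ*sky1* with cisplatin and 1 was lower. The shares of all genes were 32.8% and 37.8%. The 6 include *SHH3*, also counted for complex II, and *AIF1*, so both are among these calls. Whether these 2 donate electrons to the chain was not tested. In the comparison of cisplatin in W303, *AIF1* had 0.77, 0.67 and 0.54 with the drug, below the fission yeast 95th percentile of those arrays. *CYB2*, the L-lactate dehydrogenase that passes electrons to cytochrome c, had 10.80, 10.77 and 10.82 in W303-Δ*sky1* with cisplatin, against 9.57, 9.45 and 9.49 in W303 with cisplatin (1.29, limma adjusted p = 3.59e-07). Without the drug 2 were higher (against 24.9% of all genes), *CYB2* by 0.63 among them, and 1 was lower (against 27.4%). In W303 after cisplatin 2 were higher and 2 lower (against 13.2% and 15.3% of all genes), and *CYB2* differed by −0.59 (limma adjusted p = 0.000546).

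Of 10 genes of coenzyme Q synthesis, 6 were higher and 2 lower in W303-Δ*sky1* with cisplatin, 3 and 1 without it, and 2 and 2 after cisplatin in W303. In the same order, the shares of all genes were 32.8% and 37.8%, 24.9% and 27.4%, and 13.2% and 15.3%. They also stand beside the haem and carrier counts that follow. *COQ9* had 7.64, 7.65 and 7.63 in W303-Δ*sky1* with cisplatin, against 6.83, 6.85 and 6.80 in W303 with cisplatin (0.81, limma adjusted p = 1.83e-06), and *COQ10* was lower there by −0.67. Of 8 genes of haem synthesis, 3 were higher and 3 lower with the drug, 3 and 2 without it, and 0 and 3 after cisplatin in W303. *HEM13*, also on the list of low-oxygen genes, had 7.86, 7.77 and 7.68 in W303-Δ*sky1* with cisplatin, against 8.97, 8.98 and 8.94 in W303 with cisplatin, while *HEM4* was higher by 0.79. The 7 mitochondrial carriers and porins gave 3 higher and 3 lower with the drug, 3 and 2 without it, and 1 and 0 after cisplatin in W303. Their extremes between treated strains were the ADP/ATP carriers *AAC1* (0.79) and *AAC3* (−0.73, also a low-oxygen gene).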
